A study of Mus musculus with 6 samples.

Results

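The mouse intestinal crypt renews its lining from cycling stem cells at its base, and a second set of genes marks the cells thought to stand behind them. The 8 genes described here, taken from the table of 17526 genes by exact symbol, are markers of reserve, revival or fetal-like crypt cells together with genes of the Yap pathway: Clu, Ly6a, Bmi1, Hopx, Mex3a, Msi1, Yap1 and Tead1. All 8 passed the filter on low counts and were among the 12943 genes tested. RNA came from small intestinal crypts of Fpr2 VKO mice, labelled as an intestinal epithelial knockout of Fpr2, and of floxed control mice carrying Fpr2 f/f alleles, labelled as wild type, with 3 libraries in each group. Fpr2 encodes formyl peptide receptor 2, which binds formylated peptides from bacteria and mitochondria, and the study's title asks how it bears on the proliferation and differentiation of intestinal stem cells. The labels name neither the Cre driver nor the age of the mice, and do not say whether each library is a separate animal; the p-values then reflect variation from library to library, part of which may be technical. Fpr2 was not analysed here, and the genotype labels stand without a check on that gene.

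In the undamaged crypt most renewal comes from Lgr5-positive cells, while slowly cycling cells marked by genes such as Bmi1, Hopx or Mex3a can take their place after injury. After injury, regenerating epithelium takes on fetal-like expression, marked by Ly6a (also called Sca-1) and by the revival stem cell gene Clu. Yap1 is a coactivator that is held in the cytoplasm by the Hippo kinases and, once in the nucleus, acts through DNA-binding TEAD factors such as Tead1; this pathway is required for that regenerative state. In the mouse annotation of GRCm38.p6 (the mm10 genome), Clu lies on chromosome 14 (65968483 to 65981548), Ly6a on chromosome 15 (74994877 to 74998031), Bmi1 on chromosome 2 (18677018 to 18686629) and Hopx on chromosome 5 (77086986 to 77115123). Mex3a lies on chromosome 3 (88531946 to 88541394), Msi1 on chromosome 5 (115359059 to 115455698), Yap1 on chromosome 9 (7931999 to 8004638) and Tead1 on chromosome 7 (112679356 to 112906784).

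Promoter windows of Yap1 and Bmi1 are shown because each holds the core letters recognised by TEAD factors, the DNA-binding partners of Yap1. The windows are from RefSeq on GRCm38.p6, run from 250 bases before to 50 bases after the start, and are written 5′ to 3′ on the gene's strand with GGAATG in capitals. The Yap1 window is chr9:8004547-8004846 on the minus strand and the Bmi1 window is chr2:18676768-18677067 on the plus strand.
Yap1: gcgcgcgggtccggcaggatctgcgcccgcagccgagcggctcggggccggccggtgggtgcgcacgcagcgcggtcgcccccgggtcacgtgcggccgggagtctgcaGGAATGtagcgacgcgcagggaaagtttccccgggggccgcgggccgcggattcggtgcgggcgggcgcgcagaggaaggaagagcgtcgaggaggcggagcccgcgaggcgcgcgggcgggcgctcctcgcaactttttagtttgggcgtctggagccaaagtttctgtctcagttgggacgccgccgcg
Bmi1: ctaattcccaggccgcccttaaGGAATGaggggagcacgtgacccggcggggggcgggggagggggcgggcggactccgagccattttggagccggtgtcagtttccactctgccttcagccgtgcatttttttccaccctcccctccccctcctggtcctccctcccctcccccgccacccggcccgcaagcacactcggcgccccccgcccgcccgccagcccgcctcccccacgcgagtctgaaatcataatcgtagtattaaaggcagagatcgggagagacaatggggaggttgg
The first base of the motif lies 141 bases before the start used for the Yap1 window and 228 bases before the Bmi1 start. The start used for the Yap1 window lies inside the gene span given above, which ends at 8004638. Searched on both strands as GGAATG or CATTCC, the motif was held by 14.7% of 32851 promoter windows of the same length. These letters are not in the Mex3a window or in either of the windows of Hopx. A match describes the letters only, and neither gene with a match differed between the groups past the adjusted threshold.

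Total estimated counts ran from 16542933 to 16859902 in the Fpr2 VKO libraries and from 11108511 to 16695304 in the floxed controls. Values below are CPM (read counts relative to the size of the library) scaled by TMM, a factor that corrects for a few abundant genes taking up a large share of a library, unless another unit is named. The 10 epithelial genes of the marker list, such as Epcam and Vil1, summed to between 14000 and 15920 CPM in Fpr2 VKO and between 12090 and 16830 CPM in floxed controls. Lgr5 was present in every library, at 20.3 to 36.3 CPM in Fpr2 VKO and 41.6 to 97.7 CPM in floxed controls. Floxed controls 1 and 3 stood apart: 14 lymphocyte genes summed to 60.2 to 73.8 CPM in Fpr2 VKO and to 253, 66.1 and 199 CPM in floxed controls 1, 2 and 3. Results are therefore also given without floxed controls 1 and 3, which leaves 1 control library whose spread is assumed to be that of the knockouts. In such bulk RNA, fewer cells of a type and less RNA per cell cannot be told apart.

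No member of this group passed the test. By edgeR's quasi-likelihood test with Benjamini-Hochberg adjustment over all 12943 genes, 0 of the 8 genes had an adjusted p under 0.05, beside 0.0155% of all genes tested, which is 2 genes. Without adjustment 3 of 8 had a p under 0.05, namely Ly6a, with a positive fold change, and Hopx and Mex3a, with negative ones; the share among all genes was 13.7%. DESeq2 and limma-voom called 0 of the 8 as well, although DESeq2 called 2.69% of the genes it adjusted. Every Fpr2 VKO library lay below every floxed control for 2 of the 8, Hopx and Mex3a, beside 10.4% of all genes. For none of the 8 did every Fpr2 VKO library lie above every control, beside 6.99% of all genes. Scaled by library totals alone, which shifts the median log2 fold change of all genes from -0.013 to 0.21, Mex3a overlapped between the groups and Yap1 lay higher in every knockout, beside 20.4% of all genes that did so.

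**Figure D1:**
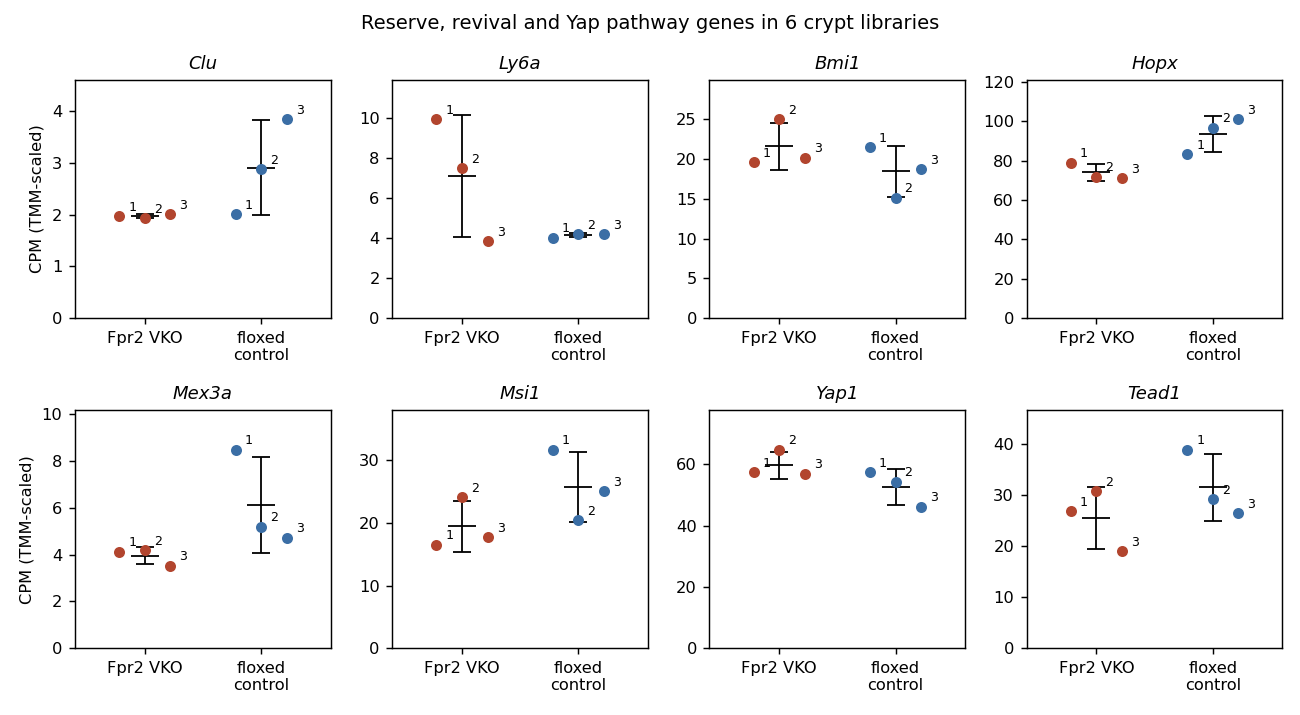
CPM (TMM-scaled) of the 8 genes in each library, with Fpr2 VKO (red) left of floxed control (blue); points carry the replicate number, and bars are the mean and SD of 3 libraries. The groups do not overlap for Hopx and Mex3a, and Ly6a is high in knockouts 1 and 2 only.

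Clu, the secreted chaperone clusterin and the marker of revival stem cells, was among the scarcest of the 8. It was read 35, 36 and 36 times in Fpr2 VKO libraries 1, 2 and 3, against 23, 44 and 39 times in floxed controls 1, 2 and 3. The counting error alone at that depth was 16.7% to 16.9% in the knockouts and 15.1% to 20.9% in the controls. Scaled, Clu stood at 1.97, 1.93 and 2.02 CPM in Fpr2 VKO, against 2.01, 2.88 and 3.84 CPM in floxed controls. The knockouts lay together beside floxed control 1, while floxed control 3 was the highest, and the groups overlapped. The log2 fold change was -0.55 ± 0.33 (SE; 95% interval -1.28 to 0.17 for this gene alone; adjusted p = 0.491 by edgeR). Without floxed control 3 it was -0.28.

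Ly6a, a glycolipid-anchored surface antigen of regenerating epithelium that also responds to interferon and is carried by lymphocytes and endothelium, had the largest positive fold change of the 8. It stood at 9.93, 7.51 and 3.86 CPM in Fpr2 VKO libraries 1, 2 and 3, against 4.03, 4.199 and 4.21 CPM in floxed controls. Knockouts 1 and 2 were high, whereas knockout 3 was the lowest of all 6 libraries. Means were 7.10 ± 3.06 CPM in Fpr2 VKO and 4.15 ± 0.103 CPM in floxed controls (SD, n = 3 each), with a log2 fold change of 0.77 ± 0.33 (SE; 95% interval 0.046 to 1.502; adjusted p = 0.335 by edgeR). Without knockout 1 the log2 value was 0.46, and without knockout 3 it was 1.07. Its estimated counts were not whole numbers in any library, and whether reads were shared with other genes was not tested. The near copy Ly6a2 had between 1 and 5.11 estimated counts in each library.

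Interferon-stimulated genes were set beside Ly6a. The 18 such genes in the table summed to 367, 386 and 243 CPM in Fpr2 VKO libraries 1, 2 and 3, against 271, 274 and 315 CPM in floxed controls. Knockouts 1 and 2 were thus the highest and knockout 3 the lowest on both measures. The order of knockouts 1 and 2 was not the same on both. Floxed control 3 had the highest interferon sum of the controls, while Ly6a differed little between the controls. After adjustment 0 of the 18 passed by edgeR. Before it 2 had p under 0.05, both positive, beside 529 of all 12943 genes tested that were so. A positive fold change was found for 17 of the 18, beside 6221 of all 12943 genes tested. This was not particular to the list, as 18 of 18 genes of the G2/M phase of the cell cycle were positive, with a median of 0.41. The median log2 value of the 18 interferon-stimulated genes was 0.41, against -0.013 for all genes tested. The median was 0.18 when knockout 1 was left out, 0.19 for knockout 2, 0.20 for floxed control 2 and 0.66 for floxed controls 1 and 3 together. Ifi44, an interferon-induced gene, stood at 4.57, 4.68 and 1.85 CPM in Fpr2 VKO, against 1.75, 1.18 and 0.98 CPM in floxed controls (log2 1.497 ± 0.43, adjusted p = 0.180). Oasl2, of the oligoadenylate synthetase family, had a log2 value of 0.61 ± 0.25 (adjusted p = 0.311), and Isg15, the ubiquitin-like modifier, 0.55 ± 0.29 (adjusted p = 0.446). The part of an interferon response in the Ly6a values was not tested. Of endothelial genes, 10 summed to 11.3, 9.34 and 7.67 CPM in Fpr2 VKO libraries 1, 2 and 3, against 11.3, 10.8 and 11.7 CPM in floxed controls. Of their defining genes, Pecam1 was at 0.50 to 0.64 CPM in Fpr2 VKO and 0.79 to 1.97 CPM in floxed controls, and Plvap at 0.45 to 0.79 CPM in Fpr2 VKO and 0.39 to 0.70 CPM in floxed controls. Cdh5 and Kdr were at 0 in the 3 knockouts and at no more than 0.17 CPM in the controls. The part of lymphocytes and endothelium in the Ly6a values was not tested.

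**Figure D2:**
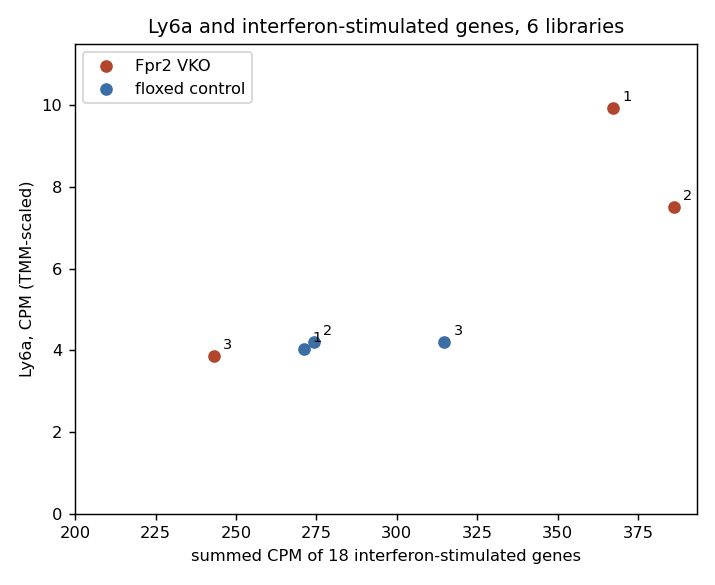
Ly6a (CPM, vertical axis) against the summed CPM of 18 interferon-stimulated genes (horizontal axis, starting at 200) in the 3 Fpr2 VKO (red) and 3 floxed control (blue) libraries, numbered by replicate. Knockouts 1 and 2, at 9.93 and 7.51 CPM of Ly6a, stand above the other 4 libraries on both axes.

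Bmi1, the Polycomb ring-finger protein whose locus was used to mark reserve stem cells, overlapped between the groups. It stood at 19.6, 24.9 and 20.2 CPM in Fpr2 VKO, against 21.5, 15.1 and 18.7 CPM in floxed controls. The highest library was knockout 2 and the lowest floxed control 2. The log2 fold change was 0.23 ± 0.19 (SE; 95% interval -0.20 to 0.65; adjusted p = 0.656 by edgeR). It was 0.57 without floxed controls 1 and 3 (adjusted p = 0.652) and 0.11 without floxed control 2.

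Hopx, an atypical homeodomain protein without DNA binding of its own and a marker of the same reserve compartment, was the member with the most reads. It stood at 79.0, 72.0 and 71.2 CPM in Fpr2 VKO, against 83.5, 96.8 and 101 CPM in floxed controls. Each knockout lay below each control, by a narrow margin between knockout 1 and floxed control 1. Means were 74.1 ± 4.33 CPM in Fpr2 VKO and 93.8 ± 9.16 CPM in floxed controls (SD, n = 3 each), a log2 fold change of -0.34 ± 0.15 (SE; 95% interval -0.67 to -0.0067; adjusted p = 0.357 by edgeR). The value ran from -0.39 to -0.25 as single libraries were left out, and it was -0.33 without floxed controls 1 and 3. Scaled by library totals, where all genes had a median of 0.21, the Hopx value was -0.11 (adjusted p = 0.698).

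The RNA-binding protein gene Mex3a marks a slowly dividing subset of the Lgr5-positive cells. It stood at 4.12, 4.18 and 3.53 CPM in Fpr2 VKO, against 8.47, 5.18 and 4.73 CPM in floxed controls. The groups did not overlap, and floxed control 1 stood well above the other 5 libraries. The log2 fold change was -0.63 ± 0.28 (SE; 95% interval -1.26 to -0.0041; adjusted p = 0.360 by edgeR). Without floxed control 1 it was -0.30 (adjusted p = 0.633), and without floxed controls 1 and 3 it was -0.33.

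Msi1, or Musashi 1, is a translational regulator found in crypt stem cells. Its values were 16.5, 24.1 and 17.7 CPM in Fpr2 VKO, against 31.6, 20.4 and 25.0 CPM in floxed controls. Knockout 2 lay above floxed control 2, so the groups overlapped. The log2 fold change was -0.40 ± 0.22 (SE; 95% interval -0.88 to 0.078; adjusted p = 0.447 by edgeR). It was -0.19 without floxed control 1 and -0.0086 without floxed controls 1 and 3.

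Paralogs of these RNA-binding genes were set beside them. Msi2 stood at 28.5, 26.3 and 24.3 CPM in Fpr2 VKO, against 38.5, 29.6 and 32.0 CPM in floxed controls (log2 -0.34 ± 0.17, adjusted p = 0.403). Mex3d had a log2 value of -0.31 ± 0.19, Mex3b of -0.30 ± 0.33 and Mex3c of -0.051 ± 0.15. None of the 4 passed by edgeR, and 0 of them had p under 0.05 before adjustment, while Msi2 and Mex3d lay below the controls in each knockout, as 10.4% of all genes did.

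Yap1 itself differed little relative to the spread. It stood at 57.4, 64.8 and 57.0 CPM in Fpr2 VKO, against 57.6, 54.4 and 46.2 CPM in floxed controls. Knockout 2 was the highest library and floxed control 3 the lowest, and floxed control 1 lay within the range of the knockouts. The log2 fold change was 0.18 ± 0.15 (SE; 95% interval -0.16 to 0.52; adjusted p = 0.660 by edgeR), and its upper end corresponds to less than a 1.5-fold difference in this scaling. It was 0.20 without floxed controls 1 and 3.

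Tead1, a DNA-binding partner of Yap1, was at 26.8, 30.8 and 19.0 CPM in Fpr2 VKO, against 38.8, 29.1 and 26.5 CPM in floxed controls. Knockout 3 was the lowest library and floxed control 1 the highest, and the groups overlapped. The log2 fold change was -0.30 ± 0.22 (SE; 95% interval -0.79 to 0.18; adjusted p = 0.590 by edgeR). It was -0.095 without floxed control 1 and -0.13 without floxed controls 1 and 3.

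The other TEAD genes differed among themselves. Tead3 stood at 54.5, 49.7 and 48.1 CPM in Fpr2 VKO, against 39.6, 56.1 and 46.6 CPM in floxed controls (log2 0.098 ± 0.17, adjusted p = 0.854). Tead4, the scarcest, stood at 1.75, 1.02 and 0.897 CPM in Fpr2 VKO, against 2.62, 1.77 and 3.85 CPM in floxed controls (log2 -1.15 ± 0.41, adjusted p = 0.253). Its groups were separated by a very small gap between knockout 1 and floxed control 2. Tead2 had a log2 value of -0.46 ± 0.29 (adjusted p = 0.523). Wwtr1, which encodes the Yap1 paralog Taz, had 0.050 ± 0.46, and the cofactor genes Vgll1 and Vgll3 were too low to test.

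**Figure D3:**
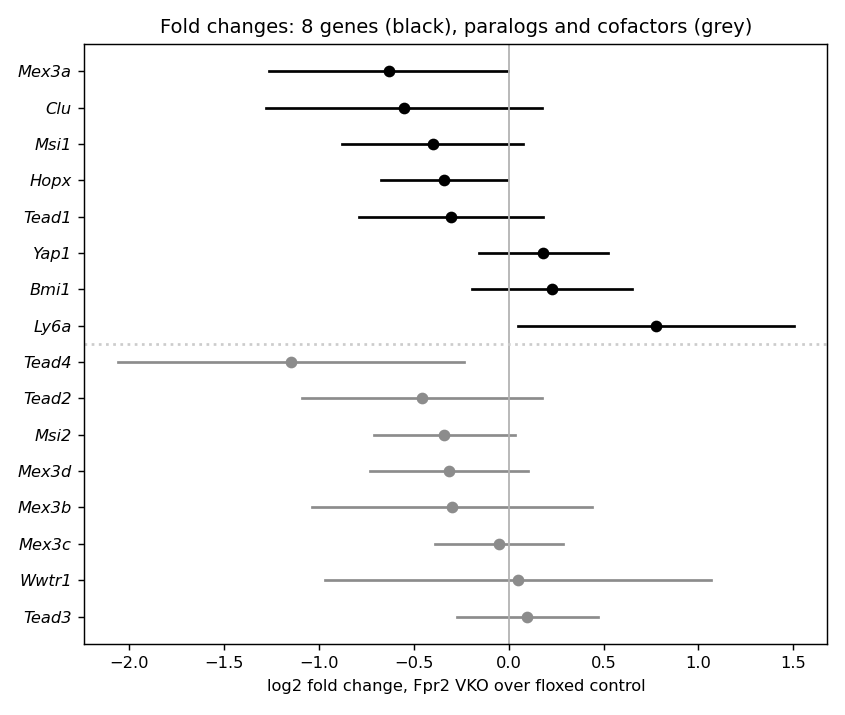
Log2 fold change, Fpr2 VKO over floxed control, of the 8 genes (black) and of tested paralogs and cofactors (grey), with 95% intervals for each gene alone. The intervals of Mex3a, Hopx and Ly6a leave out 0 among the 8, and none of the 8 passes after adjustment over all genes.

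Levels of different genes were compared per kilobase of merged exons, as CPM per kilobase over all 6 libraries. Hopx stood highest of the 8, at 48.9 ± 2.86 in Fpr2 VKO and 61.9 ± 6.04 in floxed controls (SD, n = 3 each). Yap1 came next, at 6.46 ± 0.473 in Fpr2 VKO and 5.69 ± 0.633 in floxed controls, followed by Bmi1 at 5.43 ± 0.742 in Fpr2 VKO and 4.64 ± 0.7995 in floxed controls. Ly6a was at 5.89 ± 2.54 in Fpr2 VKO and 3.44 ± 0.0854 in floxed controls, and Msi1 at 3.35 ± 0.705 in Fpr2 VKO and 4.43 ± 0.973 in floxed controls. Tead1 was at 1.88 ± 0.442 in Fpr2 VKO and 2.32 ± 0.480 in floxed controls. Mex3a, at 0.683 ± 0.0628 in Fpr2 VKO and 1.06 ± 0.354 in floxed controls, and Clu, at 0.574 ± 0.0122 in Fpr2 VKO and 0.847 ± 0.267 in floxed controls, were the lowest. Of the neighbours in that order, only Hopx and Yap1 had ranges over the 6 libraries that did not overlap. The order depends on the transcript taken as the gene's length: with the longest RefSeq transcript, Msi1 (7.20 CPM per kilobase over the 6 libraries) passed Ly6a and Bmi1, Ly6a (5.89) passed Bmi1 (5.57), and Clu (1.35) passed Mex3a.

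**Figure D4:**
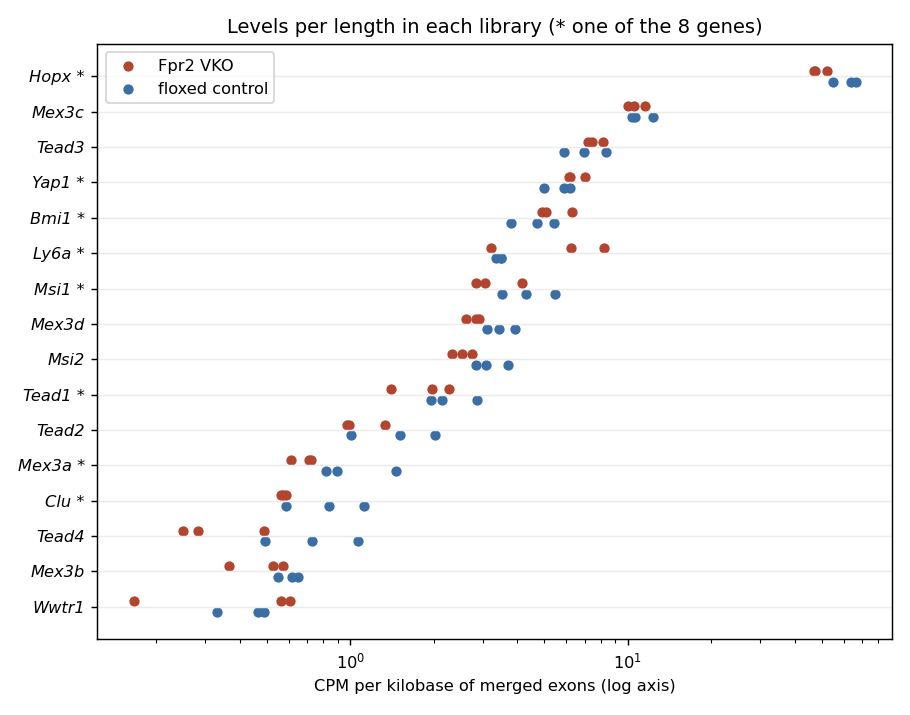
CPM per kilobase of merged exons, on a log axis, of the 8 genes (marked *) and their paralogs in each Fpr2 VKO (red, upper row) and floxed control (blue, lower row) library, ordered by the mean of the 6. Of the genes plotted, which leave out Ly6e, Hopx is the highest, and Mex3a and Clu are near the low end.

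Among TEAD genes per kilobase, Tead3 was the highest, at 7.57 ± 0.493 in Fpr2 VKO and 7.06 ± 1.23 in floxed controls, above Tead1. Wwtr1 was at 0.446 ± 0.244 in Fpr2 VKO and 0.428 ± 0.0863 in floxed controls, below Yap1 in every library. Mex3c, at 10.7 ± 0.8003 in Fpr2 VKO and 11.1 ± 1.07 in floxed controls, was the most abundant of its family and Mex3a stood above Mex3b alone.

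The wider pathways were read from lists of genes: 89 distinct genes of these lists were tested of 116 in the table, and 0 passed by edgeR over all genes. Among 26 Hippo regulators 24 were tested, 7 with positive and 17 with negative fold changes, with a median of -0.10 on the log2 scale against -0.013 for all genes. By edgeR none passed, and 4 had an unadjusted p under 0.05, all negative, beside 9.63% of all genes that were so. Vgll4, which competes with Yap1 for TEAD factors, stood at 58.3, 48.0 and 33.5 CPM in Fpr2 VKO, against 72.3, 71.0 and 71.3 CPM in floxed controls (log2 -0.62 ± 0.20, adjusted p = 0.208). The groups did not overlap, and knockout 3 was the lowest. Amotl2, an angiomotin-like protein that binds Yap1, had a log2 value of -0.57 ± 0.24 (adjusted p = 0.326), and the phosphatase gene Ptpn14, a further binder of Yap1, -1.13 ± 0.48 (adjusted p = 0.329). The kinases Lats1 and Stk4 had values of -0.14 ± 0.20 and -0.060 ± 0.15. The median of these regulators turned to 0.11 without floxed controls 1 and 3 and to 0.015 without floxed control 1 alone. It was -0.034 without knockout 3 and -0.16 without knockout 1.

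By edgeR, 0 of the Yap and Tead target genes passed. Of 24 present, 17 were tested, 6 positive and 11 negative, with a median of -0.11; 5 had an unadjusted p under 0.05, all negative, beside 9.63% of all genes that were so. Myof, the membrane repair protein myoferlin, stood at 18.5, 14.4 and 11.7 CPM in Fpr2 VKO, against 35.7, 17.5 and 33.8 CPM in floxed controls (log2 -0.96 ± 0.28; adjusted p = 0.181 by edgeR and 0.0469 by DESeq2). Floxed control 2 lay within the range of the knockouts. Fjx1, a secreted kinase-like protein of low level, had a log2 value of -1.61 ± 0.48 (adjusted p = 0.191). The classical target Ccn1 (Cyr61) stood at 2.54, 1.61 and 1.74 CPM in Fpr2 VKO, against 2.71, 2.75 and 1.97 CPM in floxed controls (log2 -0.34 ± 0.33), and Ccn2 (Ctgf) was too low to test, at no more than 0.13 CPM in any library. Leaving out floxed controls 1 and 3 gave a median of 0.075, and leaving out single libraries gave -0.24 (knockout 2) to -0.029 (knockout 3). The genes Ajuba, Amotl2, Lats2 and Ptpn14 are in both this list and that of the Hippo regulators. All of them but Lats2 are among the genes with an unadjusted p under 0.05 in both lists.

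Of 28 genes of the fetal-like state in the table, 18 passed the filter on low counts, beside 12943 of 17526 genes in all. Gja1, the gap junction gene of the connexin family, was at no more than 0.10 CPM in any library. Anxa1, an annexin of regenerating epithelium, stood at 0.45, 0.054 and 0.17 CPM in Fpr2 VKO, against 0.52, 0.20 and 0.59 CPM in floxed controls. Of the 18 tested genes 2 were positive and 16 negative, with a median of -0.25, and 0 passed by edgeR. That median was -0.40 when floxed control 2 was left out, -0.15 for floxed control 3 and -0.17 for floxed controls 1 and 3 together. Ecm1, an extracellular matrix protein, stood at 2.76, 4.40 and 4.14 CPM in Fpr2 VKO, against 1.48, 2.43 and 2.17 CPM in floxed controls (log2 0.89 ± 0.33, adjusted p = 0.266). The chemokine gene Cxcl16 had a log2 value of -1.04 ± 0.39 (adjusted p = 0.268) and Basp1, a membrane-bound signalling protein, -1.28 ± 0.49 (adjusted p = 0.281). Of the Ly6 family, 1 gene of 8 in the table was tested: Ly6e stood at 339, 307 and 324 CPM in Fpr2 VKO, against 296, 398 and 409 CPM in floxed controls (log2 -0.19 ± 0.19, adjusted p = 0.722).

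Other genes linked to reserve or slowly cycling crypt cells mostly had negative fold changes. Of 13 present, 12 were tested, 4 positive and 8 negative, with a median of -0.44. None passed by edgeR. Before adjustment 6 had p under 0.05, all negative, beside 9.63% of all genes that were so. Every knockout lay below every control for 7 of the 12, beside 10.4% of all genes. For 2, Tert and Krt15, every knockout lay above every control, beside 6.99% of all genes. Such negative counts were not particular to this list. Of 13 crypt base stem cell genes, 6 had an unadjusted p under 0.05 by edgeR, all negative, and 8 lay lower in every knockout. These counts were 20 and 19 of 20 Paneth cell genes, 15 and 14 of 17 enteroendocrine genes, and 9 and 6 of 10 tuft cell genes tested. Igfbp4, a secreted binder of insulin-like growth factors, stood at 55.4, 56.5 and 45.1 CPM in Fpr2 VKO, against 86.9, 73.0 and 92.0 CPM in floxed controls (log2 -0.68 ± 0.16; adjusted p = 0.133 by edgeR and 0.0248 by DESeq2). Prox1, a homeodomain factor of enteroendocrine and tuft lineages, stood at 6.26, 5.58 and 3.25 CPM in Fpr2 VKO, against 21.0, 6.56 and 14.3 CPM in floxed controls (log2 -1.46 ± 0.39; adjusted p = 0.160 by edgeR and 0.0153 by DESeq2). Floxed control 2 lay close to knockout 1. Nfatc1, a calcium-regulated transcription factor, had a log2 value of -0.78 ± 0.23 (adjusted p = 0.191). Sox9, a factor of crypt base and Paneth cells, had -0.51 ± 0.17 (adjusted p = 0.218).

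Against that direction, Tert, the catalytic subunit of telomerase, stood at 6.59, 7.02 and 7.41 CPM in Fpr2 VKO, against 4.83, 5.20 and 5.61 CPM in floxed controls (log2 0.43 ± 0.22, adjusted p = 0.410). Lrig1, an inhibitor of ErbB receptors, overlapped between the groups (log2 -0.31 ± 0.22, adjusted p = 0.591). For the reserve list as a whole, the median was -0.21 when floxed controls 1 and 3 were left out and -0.60 without floxed control 2.

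Polycomb repressive complex 1, in which Bmi1 is a core subunit, had 15 tested genes of 16. Their median was -0.14, 5 were positive and 10 negative, and 0 passed by edgeR, with 1 of negative fold change at an unadjusted p under 0.05, beside 9.63% of all genes. The median was -0.031 when floxed control 1 was left out, -0.077 for knockout 3, -0.22 for knockout 2 and 0.0056 for floxed controls 1 and 3 together. Scaled by library totals, where all genes had a median of 0.21, it was 0.070, and those of the Hippo regulators and of the Yap targets were both 0.11. Phc1, a polyhomeotic subunit, had a log2 value of -0.31 ± 0.21 (adjusted p = 0.569), and Cbx8, a chromobox subunit, of -0.33 ± 0.23 (adjusted p = 0.592). Ring1 and Rnf2, the catalytic ring-finger subunits, had 0.18 ± 0.18 and -0.14 ± 0.24. Cdkn2a, the cell cycle inhibitor locus that Bmi1 represses, was at no more than 0.11 CPM in any library.

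**Figure D5:**
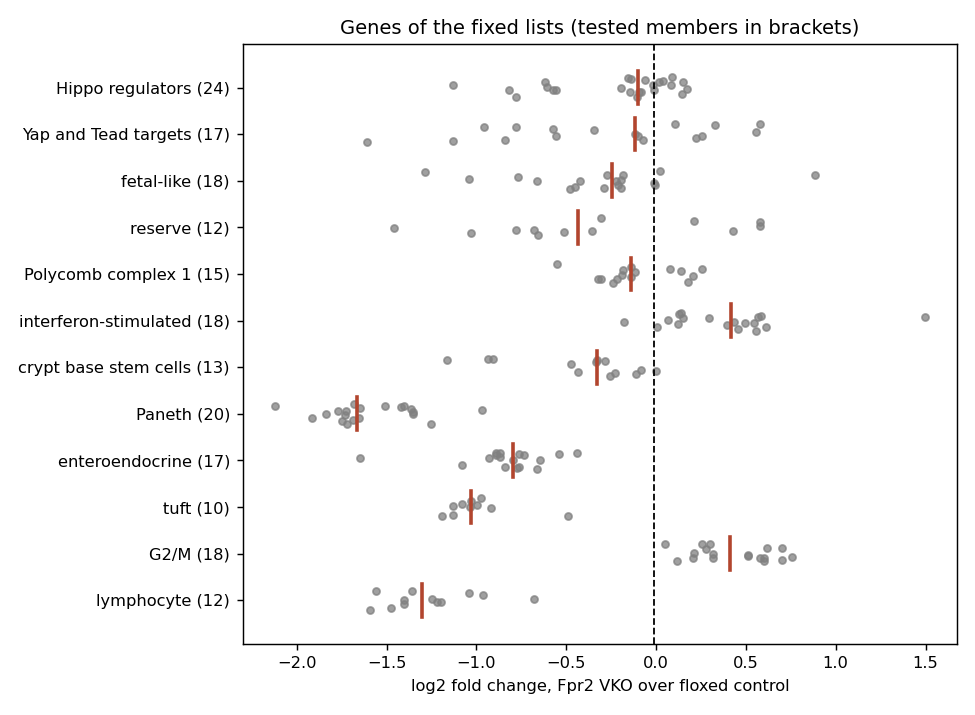
Log2 fold change, Fpr2 VKO over floxed control, of each tested gene of 12 lists (grey points, spread vertically for legibility), with the list's median (red) and the median of all genes tested (dashed). The reserve list has a median of -0.44 and the Hippo and Yap target lists lie at -0.10 and -0.11.

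Marker genes of other cells were summed in each library and set beside these values. Summed levels of 20 Paneth cell genes were 29720 to 44780 CPM in Fpr2 VKO and 87610 to 168300 CPM in floxed controls, those of 17 enteroendocrine genes 449 to 609 CPM in Fpr2 VKO and 819 to 1427 CPM in floxed controls, and those of 11 tuft cell genes 89.5 to 138 CPM in Fpr2 VKO and 134 to 281 CPM in floxed controls. Like Mex3a, Msi1, Tead1 and Prox1, the tuft sum was highest in floxed control 1, and so was that of 13 crypt base stem cell genes, at 2567, 2491 and 1856 CPM in Fpr2 VKO libraries 1, 2 and 3, against 3333, 2617 and 2589 CPM in floxed controls. Summed levels of 18 G2/M genes were 1969, 2184 and 2052 CPM in Fpr2 VKO, against 1398, 2034 and 1203 CPM in floxed controls. Summed levels of 8 B and plasma cell genes were 566 to 1124 CPM in Fpr2 VKO and 855 to 1323 CPM in floxed controls. Of these, 7 were tested and all 7 had negative fold changes, with a median of -1.79. By edgeR 0 passed, and 6 had p under 0.05 before adjustment, all negative, beside 9.63% of all genes that were so. Without floxed controls 1 and 3 the median of the B and plasma cell genes was 0.088. Summed levels of 15 enterocyte genes 5019 to 9665 CPM in Fpr2 VKO and 5899 to 12330 CPM in floxed controls, and those of 15 stromal genes 19.9 to 27.95 CPM in Fpr2 VKO and 24.1 to 37.3 CPM in floxed controls. The part of these cells in the values of the 8 genes was not tested.

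Across the 6 libraries the 8 genes did not vary as one group. As a description over these libraries, which share the group difference, the log2 CPM of Tead1 had a Pearson r of 0.85 with Mex3a and 0.76 with Msi1, and Mex3a had 0.81 with Msi1. Clu had 0.90 with Hopx and -0.90 with Yap1. Yap1 had 0.18 with its partner Tead1. Among 9672 other genes of average log2 CPM of at least 3, those most alike over the 6 libraries were Mcrip1 for Clu (r = 0.9911), Rab3gap2 for Ly6a (r = 0.9748), Zfp263 for Bmi1 (r = 0.9842), Slc7a4 for Hopx (r = 0.9979), Idi1 for Mex3a (r = 0.9955), Gab2 for Msi1 (r = 0.9839), Dhx9 for Yap1 (r = 0.9982) and Carm1 for Tead1 (r = 0.9939). The genes next in likeness were Insl6, C2cd2, Dclre1c, Abhd4, Dr1, Whrn, Msh6 and Mfap1b, for the 8 in the same order. With 6 libraries and 9672 candidates, values of at least 0.9748 were found for each of the 8.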

How the data were processed

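RNA of mouse small intestinal crypts was sequenced on a DNBSEQ instrument (BGI mRNA kit, single-end reads of 50 bp), per the labels' protocols, in 3 Fpr2 VKO and 3 floxed control libraries. The build is mm10, per the submitters' processing notes; aligner, counter and strand setting are not given in any source used here. Values deposited by the authors are estimated counts per gene, without normalisation; 31.1% to 35.2% of the values in a library were not whole numbers, and they were rounded before testing, where the design had allowed for raw counts. The members and lists were chosen with earlier results of these data known.

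Groups were compared in R 4.3.3 with edgeR 4.0.16 (filterByExpr, TMM, robust glmQLFit, glmQLFTest on group, Benjamini-Hochberg adjustment), which was tested on simulated data. There it called 16.4% of genes made to differ 1.5-fold, 71.2% at 2-fold and 98.5% at 4-fold, and 4 of 12620 unchanged genes. The simulated libraries differed in depth and fitted spread only, without shared shifts in cell make-up, and the scarcest genes were not among those changed. These percentages therefore do not give the share of real differences found in these data. In the data 0 of 20 Paneth cell genes, of median log2 fold change -1.67, passed by edgeR. The biological coefficient of variation was 20.3%. Intervals are 95% t intervals on the edgeR standard error. Alternatives used DESeq2 1.42.0 and limma 3.58.1. Lengths came from GENCODE M21, positions and promoters from RefSeq GRCm38.p6 (promoters were found for 4 of 8 genes). Figures used Python 3.11.15 and matplotlib 3.10.9. Named genes were the 8, the paralogs, up to 3 genes of smallest p in each list and the 2 most alike genes. Cell type marker lists are given here mostly as sums. Of the cell type markers set in the design, Epcam, Vil1, Lgr5, Pecam1, Plvap, Cdh5 and Kdr are named, picked after values were seen. Lats1, Stk4, Ccn1, Ccn2, Gja1, Anxa1, Sox9, Tert, Krt15, Lrig1, Ring1, Rnf2, Cdkn2a and Ly6a2 were named after their values were seen. No pair of libraries was a duplicate by a chi-square test of counts. Fpr2 was not analysed, and some genes of the lists are not reported here.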

Additional observations from a re-analysis of the deposited data

How the results depend on the processing

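All 8 genes kept their direction and stayed short of the adjusted threshold under each of 16 alternatives: other scalings, tests and filters, a replicate block, each library left out in turn, floxed controls 1 and 3 left out, and, added after the data were seen, floxed control 2 and knockout 1 left out and scaling by library totals. With single libraries left out, 0 of the 8 were called each time, and the log2 fold changes ran from -0.73 to -0.28 for Clu, 0.46 to 1.07 for Ly6a, 0.11 to 0.38 for Bmi1, -0.39 to -0.25 for Hopx, -0.75 to -0.30 for Mex3a, -0.58 to -0.19 for Msi1, 0.12 to 0.28 for Yap1 and -0.46 to -0.095 for Tead1.

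The count of all genes called depended on the setting, and the cause was not tested. It was 2 as reported, 0 with DESeq2 size factors and with TMM computed without the 50 most abundant genes, 1 by limma-voom, 13 by library totals, 67 with no filter beyond 1 count and 342 by DESeq2. It ran from 0 (without knockout 1, knockout 3 or floxed control 3) to 955 (without floxed control 2), and was 11 without floxed control 1, 12 without floxed controls 1 and 3 and 920 without floxed control 2 and knockout 1. With the replicate block it was 39. Same-numbered libraries had correlations of -0.22, -0.45 and 0.16 between their deviations from the group means. Knockout 2 went best with floxed control 1 (0.63). Whether same-numbered libraries were paired cannot be decided from such deviations, which come from 3 libraries a group. Of the 89 pathway genes, 0 were called as reported, and 13 of the other settings gave 0 too. DESeq2 called 3, Igfbp4, Prox1 and Myof. The count with single libraries left out ran from 0 to 9 (without floxed control 2), and it was 7 without floxed control 2 and knockout 1. Per kilobase of the longest RefSeq transcript, the mean levels over the 6 libraries moved to 1.35 CPM for Clu, 66.5 for Hopx, 7.20 for Msi1, 13.5 for Yap1 and 2.86 for Tead1. Depth limits Clu most, at 23 to 44 reads a library; counting errors cover counting only.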
